A study of Mus musculus with 9 samples.

Results

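T-bet, encoded by *Tbx21*, and Eomesodermin, encoded by *Eomes*, are T-box transcription factors that direct cytotoxic T cells. These 2 genes were found by symbol among the 24060 of the deposited table, and both passed the filter on low values. They were measured in 9 libraries of activated CD8 T cells, 3 from each of 3 transnuclear clones, named R7-I, R7-II and R7-III. A transnuclear line is a mouse line made from the nucleus of 1 T cell, so that its CD8 T cells share the receptor of that founder. All 3 receptors recognize the ROP7 peptide of *Toxoplasma gondii* on H-2Ld, and the lines were kept on a BALB/c background with intact Rag2. The submitters rank the affinity for the peptide as R7-I above R7-III above R7-II, and the reactivity to self as R7-III above R7-I above R7-II. When the paper measured affinity on whole T cells, R7-I and R7-III were similar and R7-II was lower. Splenocytes of every line were kept overnight in medium with mouse IL-2 (10 ng/ml) and the peptide (10 µM), after which live CD3+ CD8+ cells that bound the ROP7 tetramer were sorted. Each clone is thus represented by 1 mouse line and 1 founder nucleus, and receptor affinity cannot be told apart from other inherited differences between the lines. Unstimulated cells were not analysed here.

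T-bet is induced early after T cell receptor ligation, is raised further by interferon-γ and IL-12, and drives the effector program: interferon-γ, cytotoxic granules, CXCR3. Eomes usually follows later, is favoured by IL-2 and by Foxo1 and Wnt-linked factors, shares many targets with T-bet, and is tied to memory cells. High T-bet is known from short-lived effector cells and a high share of Eomes from long-lived ones.

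*Tbx21* lies on chromosome 11 of mm10 from 97098007 to 97115331 on the minus strand, and *Eomes* on chromosome 9 from 118478186 to 118486132 on the plus strand. Both have 6 exons in the annotated transcript with the most exons. The windows around their start sites, 250 bases before to 50 after, are shown because *Tbx21* and its neighbour *Tbkbp1* were both far lower in R7-II while *Eomes* did not pass the test, as described below. For *Tbkbp1*, 1 of its 2 windows is shown. They are reference sequences of RefSeq for GRCm38.p6, the build of mm10, read in the direction of transcription. Capitals mark the letters GGGCGG (a GC box) and TATAA (the core of a TATA box) on either strand. These motifs were chosen after the sequences were seen.
Tbx21, chr11:97115282-97115581, minus strand: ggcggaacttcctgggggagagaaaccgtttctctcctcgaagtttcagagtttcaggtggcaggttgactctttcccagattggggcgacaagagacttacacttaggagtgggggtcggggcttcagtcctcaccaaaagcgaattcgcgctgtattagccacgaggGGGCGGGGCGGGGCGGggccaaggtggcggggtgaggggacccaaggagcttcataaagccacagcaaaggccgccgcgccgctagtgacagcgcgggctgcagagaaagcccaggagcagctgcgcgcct
Eomes, chr9:118477939-118478238, plus strand: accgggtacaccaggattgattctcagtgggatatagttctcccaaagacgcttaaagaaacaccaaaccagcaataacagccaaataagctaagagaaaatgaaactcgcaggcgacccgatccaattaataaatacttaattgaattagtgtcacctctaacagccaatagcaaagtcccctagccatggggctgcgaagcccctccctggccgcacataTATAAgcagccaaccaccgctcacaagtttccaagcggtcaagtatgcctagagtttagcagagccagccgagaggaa
Tbkbp1, chr11:97151457-97151756, minus strand: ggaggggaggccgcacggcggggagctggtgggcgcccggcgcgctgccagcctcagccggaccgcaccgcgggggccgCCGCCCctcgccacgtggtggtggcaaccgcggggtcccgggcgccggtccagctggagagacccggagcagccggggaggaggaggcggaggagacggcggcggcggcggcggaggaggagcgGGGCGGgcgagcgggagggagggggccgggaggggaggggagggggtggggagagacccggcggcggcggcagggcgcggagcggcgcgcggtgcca
The *Tbx21* window held 3 GC boxes, each sharing 1 base with the next, and no TATAA, and 62% of its bases were G or C. The *Eomes* window held 1 TATAA and no GC box, with 47.3% G or C. The window shown of *Tbkbp1*, the gene that follows *Tbx21* on the chromosome, held 2 GC boxes and 83% G or C. Its other window held 1 GC box and 62.3% G or C. Of 32851 such windows of the mouse genome, 35.7% held a GC box and 24.9% a TATAA. The letters GGTGTG, the core that T-box factors bind, were in none of the 3 windows shown and in 19.0% of all windows.

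R7-II held far less *Tbx21* RNA than R7-I or R7-III. Levels are given as TPM, the abundance of a transcript corrected for gene length and set to a common total per library. R7-I libraries were at 45.5, 47.1 and 44.2 TPM, R7-III libraries at 54.3, 52.7 and 42.1 TPM, and R7-II libraries at 3.38, 6.47 and 5.91 TPM (replicates 1 to 3). Every R7-II library was below every other one, and R7-I and R7-III overlapped. Mean ± SD over 3 libraries was 45.6 ± 1.45 TPM for R7-I, 5.25 ± 1.65 for R7-II and 49.7 ± 6.66 for R7-III. Of all genes tested, 20.6% had every R7-II library below every R7-I library, and 24.3% below every R7-III library.

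As a ratio of mean TPM, *Tbx21* in R7-II was 8.68-fold below R7-I and 9.46-fold below R7-III. On the log2(TPM + 1) scale the change was -2.94 relative to R7-I (adjusted p = 2.31e-07) and -3.05 relative to R7-III (adjusted p = 2.01e-07), with a standard error of 0.170 for both. These values are from limma over 11330 genes with a maximum TPM above 1, adjusted by Benjamini-Hochberg, and called at an adjusted p under 0.01. At this threshold 15.5% and 18% of all genes passed as lower in the 2 comparisons. The p-values measure the spread between libraries. Ordered by log2 fold change from the lowest, *Tbx21* ranked 7 of all genes tested against R7-I and 8 against R7-III. R7-III exceeded R7-I by 0.11 on this scale (95% interval -0.26 to 0.49, adjusted p = 0.699 from limma). Over the 3 R7-II and the 6 other libraries the exact two-sided permutation test gave p = 0.0238, the smallest that 3 against 6 allow. The pairwise exact tests of R7-II gave p = 0.1, the smallest for 3 against 3.

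*Eomes* RNA had a lower mean in R7-II as well, but by less than *Tbx21*, and did not pass the threshold. It stood at 11.7, 15.1 and 10.3 TPM for R7-I, at 13.01, 12.5 and 10.6 TPM for R7-III, and at 5.66, 5.51 and 12.8 TPM for R7-II. Replicates 1 and 2 of R7-II were below all other libraries, whereas replicate 3 lay among those of R7-I and R7-III. Mean ± SD over 3 libraries was 12.4 ± 2.48 TPM for R7-I, 7.99 ± 4.17 for R7-II and 12.1 ± 1.25 for R7-III.

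On the log2 scale *Eomes* of R7-II differed by -0.65 from R7-I (95% interval -1.20 to -0.096) and by -0.63 from R7-III (95% interval -1.18 to -0.074). Neither passed the threshold (adjusted p = 0.0388 and 0.0454 from limma; unadjusted p = 0.0257 and 0.0300), and an exact permutation test (two-sided) against the other 6 libraries gave p = 0.119. After median-of-ratios scaling they were -0.82 and -0.75 and did not pass either (adjusted p = 0.0173 and 0.0266 from limma). Without this scaling and ordered by log2 fold change from the lowest, *Eomes* ranked 380 of all genes tested against R7-I and 657 against R7-III. Without R7-II replicate 3 the log2 fold changes were -1.01 and -0.98 (adjusted p = 1.58e-04 and 1.95e-04 from limma), so this library decided the call. R7-III differed from R7-I by -0.022 on this scale (95% interval -0.58 to 0.53, adjusted p = 0.967 from limma).

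**Figure D1:**
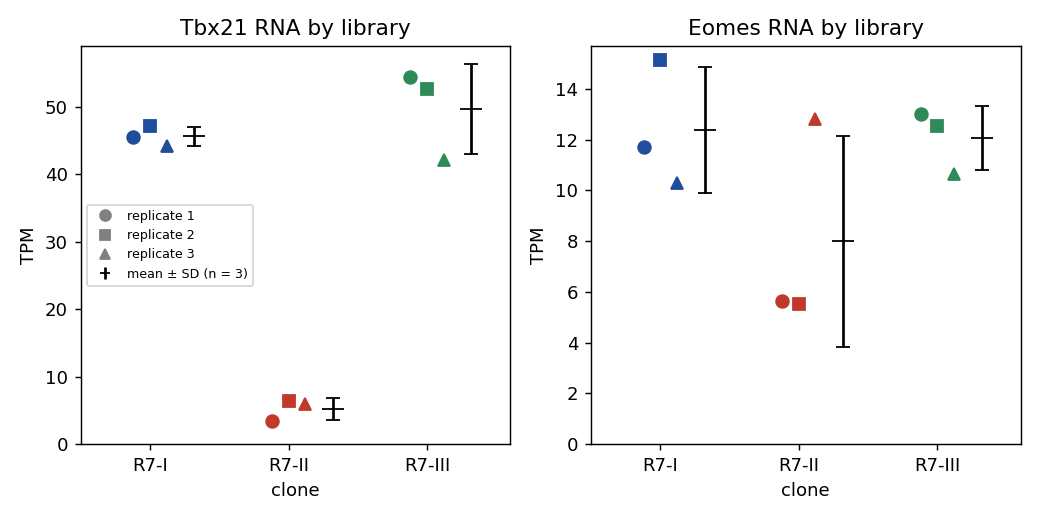
RNA of *Tbx21* (left) and *Eomes* (right) in TPM for each of the 9 libraries by clone; symbols are replicates, and bars at the right of each clone are the mean ± SD (n = 3). The R7-II libraries of *Tbx21* lie at 3.38 to 6.47 TPM, below all others, while R7-II replicate 3 of *Eomes* (12.8 TPM) lies among the other clones.

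Because TPM is corrected for length, the levels of the 2 genes can be set against each other within a library. *Tbx21* stood above *Eomes* in every R7-I and R7-III library, at 3.12 to 4.30 times the *Eomes* TPM in R7-I and 3.95 to 4.203 times in R7-III. In R7-II the ratio was 0.597, 1.17 and 0.462 in replicates 1 to 3, so that *Eomes* was the more abundant in replicates 1 and 3. The difference log2(*Tbx21* TPM + 1) minus log2(*Eomes* TPM + 1) was 1.82 ± 0.218 in R7-I, -0.47 ± 0.610 in R7-II and 1.95 ± 0.0562 in R7-III (SD over 3 libraries). R7-II differed from the other 6 libraries by -2.35 (p = 0.0238 by the two-sided exact permutation test, its lowest possible value), without overlap. Pairwise it differed by -2.29 from R7-I and by -2.42 from R7-III (exact permutation test, p = 0.1 for both, the smallest for 3 against 3). The 2 genes were thus changed unequally in R7-II. R7-III and R7-I differed by 0.14 in this measure (exact permutation test, p = 0.5).

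**Figure D2:**
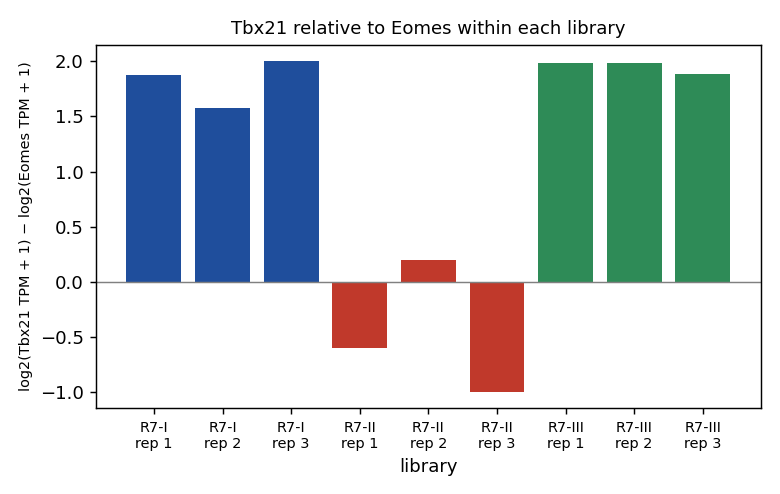
Difference between *Tbx21* and *Eomes* on the log2(TPM + 1) scale in each library (bars; blue R7-I, red R7-II, green R7-III). The R7-I and R7-III libraries lie between 1.58 and 2.00, the R7-II libraries between -0.998 and 0.20.

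The samples are bulk RNA, so fewer cells with a transcript and less of it per cell cannot be told apart. NK cells also carry both factors, and their markers were at or near 0: of 9 NK cell marker genes, 5 were listed at 0 throughout, *Ncr1* and *Klrb1c* were at 0.09 TPM or less, and no marker exceeded 0.67 TPM in any library. The 9 CD8 T cell markers, all tested, summed to 2936 to 2976 TPM in R7-II. This was above R7-I (2296 to 2402 TPM) and R7-III (2563 to 2653 TPM). Compared with R7-I, 6 of the 9 passed as higher and 1 as lower. The whole gene set had 40.6% higher and 15.5% lower there. Compared with R7-III, 7 markers passed as higher and 1 as lower, beside 35.6% and 18% of the whole set. This background also applies to the marker counts that follow, which were taken without median-of-ratios scaling. The sum of 4 CD4 T cell markers was 8.01 TPM at most. R7-II libraries held more RNA of B cell markers (35.5 to 74.2 TPM summed over 9 genes, against 5.14 to 16.0 in the other clones; of the 8 tested, 3 passed the filter through R7-II alone, and the other 5 passed as higher in both comparisons). The same held for MHC class II genes (112 to 183 against 24.3 to 50.3 TPM over 7 genes, with 1 tested through R7-II alone and the other 6 higher). Myeloid genes summed to 104 to 160 against 66.7 to 75.3 TPM over 9 genes, of which 5 were tested through R7-II alone and the other 4 were higher in both comparisons. R7-II replicate 3, which decided the *Eomes* call, had the highest myeloid sum (160 TPM, against 118 and 104 in replicates 1 and 2). For B cell markers it lay between them (56.8 TPM, against 74.2 and 35.5). The part of these cells in the values of *Tbx21*, *Eomes* and the genes below was not tested.

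Across all genes, 40.6% passed as higher when R7-II was set against R7-I, besides the 15.5% that were lower. Relative to R7-III these shares were 35.6% and 18%, and in R7-III relative to R7-I 6.96% were higher and 1.45% lower. The median log2 fold change over all genes was 0.17 and 0.12 in the comparisons of R7-II, a shift that median-of-ratios scaling removed (-0.0013 and -0.0023). With it 46.2% and 47.0% of the genes passing were higher in R7-II, instead of 72.4% and 66.4%. Under that scaling the log2 fold change of *Tbx21* was -3.10 and -3.16. Both comparisons of R7-II use the same R7-II libraries, so their values are not independent of each other. Where a pair of log2 fold changes is given for R7-II, the first is against R7-I and the second against R7-III.

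In the T-box family, 4 of 17 genes passed the filter on low values. *Mga*, which encodes a partner of Max with a T-box, was at 22.6 ± 0.841, 24.6 ± 1.69 and 25.7 ± 0.683 TPM in the clones R7-I to R7-III (mean ± SD over 3 libraries) and did not pass in any comparison. The log2 fold change relative to R7-I was 0.11, and -0.067 after median-of-ratios scaling. Against R7-III it was -0.06, and it passed as lower under that scaling (-0.19, adjusted p = 0.004 from limma). *Tbx6*, a factor of mesoderm formation, was at 0.11 to 0.51 TPM in the other clones, and at 3.42, 2.14 and 3.30 TPM in R7-II. It passed the filter through R7-II alone, which favours a difference in that direction, so these levels are a description. Per length, *Tbx21* was the most abundant T-box RNA in R7-I and R7-III, followed by *Mga* and *Eomes*, with no overlap between the 3 genes. In R7-II *Mga* was the most abundant, and the libraries of *Eomes* and *Tbx21* overlapped below it. The 13 genes that were not tested stayed at 1 TPM or less in every library.

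Genes that T-bet or Eomes are known to activate were mostly lower in R7-II. Of 23 such genes 16 were tested. Against R7-I 10 (62.5%) passed as lower and 1 (6.25%) as higher, and against R7-III 13 (81.25%) and 2 (12.5%). Over all genes 15.5% were lower and 40.6% higher against R7-I, and 18% and 35.6% against R7-III. The genes counted as higher, *Il18r1* and *Gzma*, passed the filter on low values through R7-II alone, and of the other 14 genes 10 and 13 were lower. The median log2 fold change of the 16 was -0.90 and -0.86, against 0.17 and 0.12 over all genes. *Il12rb2*, *Il2rb*, *Il18r1* and *Zeb2* also belong to other lists below.

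*Gzmb*, the granzyme B gene, was at 813, 785 and 496 TPM in R7-I, whereas R7-III had 410, 426 and 261 TPM and R7-II 56.5, 79.6 and 85.2 TPM. Its log2 fold change was -3.21 and -2.28 (adjusted p = 9.23e-07 and 1.03e-05 from limma). *Ifng*, the interferon-γ gene, was at 153, 160 and 133 TPM in R7-I, whereas R7-III had 121, 117 and 128 TPM and R7-II 25.2, 36.9 and 47.5 TPM. Its log2 fold change was -2.04 and -1.76 (adjusted p = 2.85e-06 and 8.37e-06 from limma). For both genes the R7-II libraries lay below all others, as did 20.6% of all genes tested against R7-I and 24.3% against R7-III.

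*Il12rb2*, the signalling chain of the IL-12 receptor, was at 30.6, 32.4 and 28.3 TPM in R7-I, whereas R7-III had 34.6, 36.8 and 23.5 TPM and R7-II 7.46, 10.8 and 8.0 TPM (log2 fold change -1.70 and -1.73). *Cxcr3*, the receptor for interferon-induced chemokines, was lower by a log2 fold change of -1.18 and -1.30 (adjusted p of these 2 genes at most 7.40e-06 from limma). In the paper, quantitative PCR on a separate activation experiment did not correlate with the RNA sequencing for *Cxcr3*, unlike for the other genes tested there. The R7-I and R7-III libraries overlapped for *Il12rb2* and for *Cxcr3*.

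The chemokine genes *Xcl1*, *Ccl4* and *Ccl3* were the most abundant of the list. *Ccl3* had a mean of 1435 TPM in R7-I, 409 in R7-II and 1093 in R7-III, with log2 fold changes of -1.81 and -1.41 in R7-II. They were -1.06 and -0.77 for *Ccl4* and -0.74 and -0.55 for *Xcl1*. In each R7-II library all 3 were below every library of the other clones. Of all genes tested, 20.6% were so separated from R7-I and 24.3% from R7-III.

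Of *Prf1*, the perforin gene, R7-I had 36.3 ± 8.32 TPM, R7-II 26.9 ± 0.772 and R7-III 39.5 ± 0.628 (mean ± SD over 3 libraries). The log2 fold change of -0.39 relative to R7-I did not pass (adjusted p = 0.0199 from limma), and that of -0.54 relative to R7-III did (adjusted p = 0.00393). The first passed without R7-I replicate 3 (log2 fold change -0.59, adjusted p = 1.01e-05), when scaled by median-of-ratios (-0.57, adjusted p = 0.00381) and with quantile normalization (-0.62, adjusted p = 0.00247). The second was lost in 8 of 19 other fits, among them those without R7-II replicate 2 or 3 and without any 1 of the R7-III libraries (-0.55 to -0.52, adjusted p = 0.0113 to 0.0138). *Il2rb*, the IL-2 and IL-15 receptor β chain that both factors are known to induce, did not pass in either comparison (173 ± 6.48, 181 ± 1.56 and 191 ± 10.3 TPM in the order R7-I to R7-III, mean ± SD over 3 libraries), with a log2 fold change of 0.06 against R7-I that was -0.12 after median-of-ratios scaling. Against R7-III its log2 fold change was -0.07, and it passed as lower under that scaling (-0.21, adjusted p = 0.00326 from limma). *Il18r1*, a chain of the IL-18 receptor, was at 1.21 ± 0.295 TPM in R7-II, 0.243 ± 0.0503 in R7-I and 0.237 ± 0.0737 in R7-III (SD, n = 3). *Gzma*, the granzyme A gene, was at 0.69, 1.41 and 1.06 TPM in R7-II, 0.26 to 0.90 TPM in R7-I and at most 0.21 TPM in R7-III. It was named after its values were seen. As both were tested only because R7-II was above 1 TPM, their levels are a description. *Hlx*, a homeobox partner of T-bet, was listed at 0 in every library.

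Relative to R7-I, 6.96% of all genes passed as higher in R7-III and 1.45% as lower. Of the 16 activated targets 1 (6.25%, no larger a share) passed as higher and 2 (12.5%) as lower. These were *Ccl5* (10.9 ± 1.16 TPM in R7-III, 4.55 ± 0.142 in R7-I and 5.38 ± 2.29 in R7-II, mean ± SD, n = 3; log2 fold change 1.09, adjusted p = 0.00696 from limma), *Ccl3* (-0.39) and *Ccl4* (-0.30). *Ccl5* was named because it passed. It did not pass when any 1 of the R7-I or R7-III libraries was left out (log2 fold change 1.01 to 1.14, adjusted p = 0.0203 to 0.0305). *Gzmb* was lower in all R7-III than in all R7-I libraries, as were 12.4% of genes tested (log2 fold change -0.93), but did not pass (adjusted p = 0.0184 from limma; without R7-I replicate 3 it was -1.16, adjusted p = 0.00786).

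**Figure D3:**
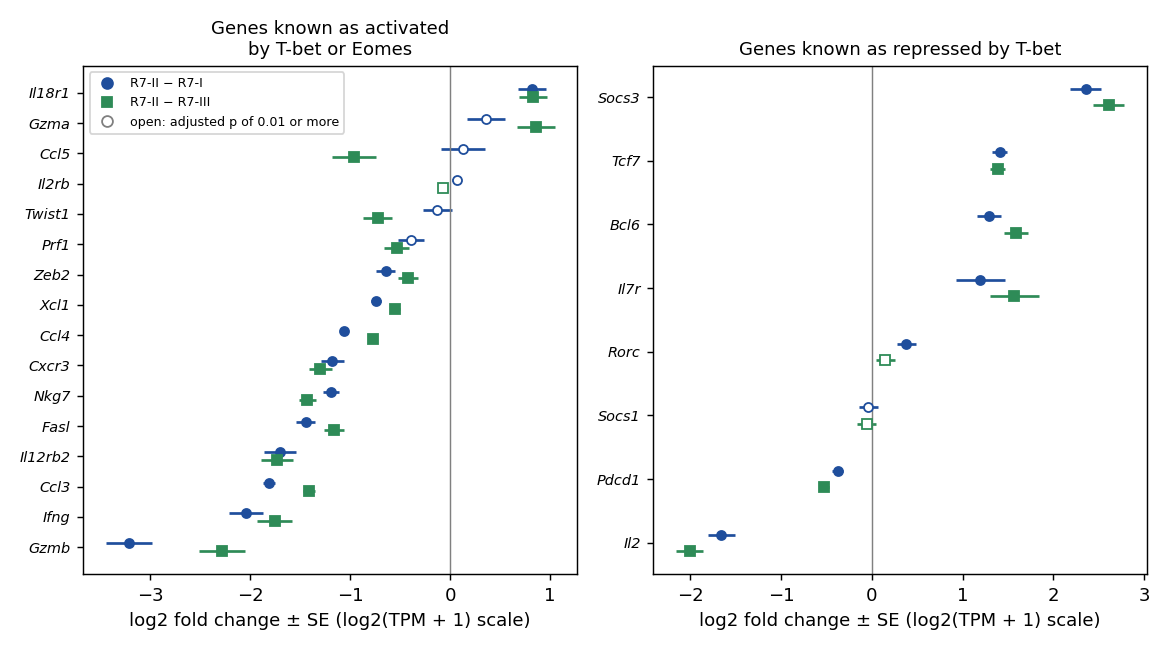
Log2 fold changes ± SE of R7-II against R7-I (blue circles) and R7-III (green squares) for genes known as activated by T-bet or Eomes (left) and as repressed by T-bet (right), ordered by the change against R7-I; open symbols did not pass the adjusted p of 0.01. Most genes at the left lie below 0, down to -3.21 for *Gzmb*, and the right panel runs from *Il2* at -1.66 to *Socs3* at 2.35 against R7-I.

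Genes that T-bet is known to repress moved both ways. Of 10 genes 8 were tested. Against R7-I 5 (62.5%) passed as higher and 2 (25%) as lower, and against R7-III 4 (50%) and 2 (25%). Over all genes 40.6% and 15.5% did so against R7-I, and 35.6% and 18% against R7-III. The medians of the 8 were 0.79 and 0.77. Against R7-I 4 were higher after median-of-ratios scaling (median 0.63) and 3 after quantile normalization (median 0.45). *Tcf7*, the gene of the naive and memory factor TCF-1, had a mean of 180 TPM in R7-I, 481 in R7-II and 183 in R7-III (log2 fold change 1.41 and 1.38). *Socs3*, an inhibitor of cytokine signals, rose by 2.35 and 2.61, *Bcl6*, a repressor that can bind T-bet, by 1.29 and 1.58, and *Il7r*, the IL-7 receptor gene, by 1.19 and 1.57. *Il7r* was named after its values were seen, and against R7-I it did not pass without R7-I replicate 3 or R7-II replicate 1 (1.05 and 1.14, adjusted p = 0.0124 and 0.0104 from limma). *Il2* was lower (-1.66 and -2.01), as was *Pdcd1*, the PD-1 gene (-0.38 and -0.52). Relative to R7-I none of the 8 passed in R7-III by limma, and 2 of them, *Il2* and *Pdcd1*, had an unadjusted p under 0.05.

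Among genes of the cytokine pathways that induce T-bet or Eomes, 19 of 19 were tested. Against R7-I 11 (57.9%) passed as higher and 5 (26.3%) as lower in R7-II, and against R7-III 8 (42.1%) and 5 (26.3%). Over all genes these shares were 40.6% and 15.5% against R7-I, and 35.6% and 18% against R7-III. *Il18r1*, among the higher ones, was tested through R7-II alone. Of the other 18 genes 10 were higher and 5 lower against R7-I, and 7 and 5 against R7-III. The medians of the 19 were 0.38 and 0.08. After median-of-ratios scaling the counts of the 19 were 9 and 7, and 8 and 8, with medians of 0.19 and -0.048. The lower ones were *Il12rb2*, given above, and 4 others. *Il12rb1* changed by -1.12 and -1.15, *Stat4*, the factor activated by IL-12, by -0.73 and -0.58, *Il2ra* by -0.54 and -0.46, and *Stat5a*, a factor activated by IL-2, by -0.40 and -0.25. Against R7-III *Stat5a* did not pass in 6 of 19 other fits, among them those without replicate 1 or 2 of R7-II or of R7-III (-0.24 to -0.19, adjusted p = 0.0101 to 0.0150 from limma). *Ifngr2*, a chain of the interferon-γ receptor, was higher in R7-II, at 17.0 ± 2.88 TPM against 6.43 ± 0.295 in R7-I and 7.39 ± 0.112 in R7-III (mean ± SD, n = 3; log2 fold change 1.26 and 1.09). *Il6st* rose by 0.82 and 0.77, and *Il2rg*, the common γ chain, by 0.38 and 0.27.

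Factors that act beside T-bet and Eomes in the fate of CD8 T cells gave 10 higher and 2 lower of 16 tested in R7-II against R7-I, and 8 and 4 against R7-III, with medians of 0.29 and 0.17. Over all genes 40.6% were higher and 15.5% lower against R7-I, and 35.6% and 18% against R7-III, so that the 2 lower genes against R7-I are no larger a share than that of all genes. Besides *Tcf7*, the inhibitors of E proteins *Id2* (1.08 and 1.24) and *Id3* (1.06 and 0.67) were higher in R7-II. *Zeb2*, a repressor that T-bet is known to induce, was at 5.00 ± 0.264, 2.84 ± 0.355 and 4.14 ± 0.425 TPM in the order R7-I to R7-III (mean ± SD over 3 libraries), with log2 fold changes of -0.65 and -0.42. *Irf4* had a mean of 502, 406 and 468 TPM in the same order (-0.31 and -0.21). Against R7-III *Zeb2* did not pass without R7-II replicate 2 or R7-III replicate 2 (-0.35 in both, adjusted p = 0.01003 and 0.0182 from limma). *Irf4* did not pass there without R7-III replicate 2 or 3 (-0.21 and -0.19, adjusted p = 0.0127 and 0.0167), without a filter or a trend, or after quantile normalization (-0.14, adjusted p = 0.0402). *Ctnnb1*, the β-catenin gene, rose by 0.28 and 0.30, but missed the threshold against R7-I when scaled by median-of-ratios (0.089, adjusted p = 0.0276). Under median-of-ratios scaling the counts of the whole list were 6 higher and 3 lower against R7-I.

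Of 8 proteins that bind or modify T-bet, 7 were tested, and 4 passed as higher and 1 as lower in both comparisons of R7-II. Of these 7 genes 57.1% were higher and 14.3% lower, beside the shares over all genes given above. After median-of-ratios scaling these were 2 and 2 against R7-I. *Setd7* and *Kdm6b*, both histone-modifying enzymes, rose by 0.49 and 0.38 against R7-I and by 0.38 and 0.57 against R7-III, and *Usp10*, a deubiquitinase described to stabilize T-bet, was lower in both (-0.23). *Kdm6b* did not pass against R7-I after median-of-ratios scaling (0.19). *Smarca4*, the gene of a chromatin-remodelling ATPase, had log2 fold changes of 0.10 and 0.09 that did not pass, and both were negative after that scaling (-0.08 and -0.04). Against R7-I it passed as higher without R7-II replicate 2 (0.12, adjusted p = 0.00845 from limma).

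The neighbours of *Tbx21* were examined as the 3 nearest genes tested on each side. *Tbkbp1*, which encodes a protein that binds the kinase TBK1, lies next to *Tbx21* on the same strand (chromosome 11, 97136171 to 97151506), 20.8 kb from it and upstream in the direction of transcription. It was at 9.21, 8.51 and 9.19 TPM in R7-I, whereas R7-III had 10.1, 9.30 and 8.56 TPM and R7-II 0.92, 2.51 and 1.90 TPM. As for *Tbx21*, the R7-II libraries were all below the others, replicate 1 was the lowest and replicate 2 the highest of R7-II, and R7-I and R7-III overlapped. Of all genes tested, 20.6% had every R7-II library below every R7-I library, and 24.3% below every R7-III library. The log2 fold change of *Tbkbp1* was -1.89 and -1.94 (limma, adjusted p = 5.96e-06 and 5.28e-06, with a standard error of 0.177). The paper, with its own test of the activated cells, already lists both *Tbx21* and *Tbkbp1* among the genes most lowered in R7-II.

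The genes farther out moved less. *Kpnb1*, beyond *Tbkbp1*, was lower (-0.34 and -0.35), with a mean of 312 TPM in R7-II, 395 in R7-I and 397 in R7-III. *Npepps* rose by 0.49 and 0.39. On the other side of *Tbx21*, *Osbpl7* rose by 0.36 and 0.40 (against R7-I it did not pass after quantile normalization, at 0.099 and adjusted p = 0.0810 from limma), while *Mrpl10* (log2 fold change 0.03 in both) and the microRNA gene *Mir8103*, which lies within *Osbpl7*, did not pass. After median-of-ratios scaling *Mrpl10* passed as lower against R7-I (-0.16, adjusted p = 0.00670 from limma). Reads of *Mir8103* and *Osbpl7* cannot be told apart where the 2 overlap.

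Of the 6 genes tested near *Eomes*, none passed as lower in R7-II. Over all genes 15.5% passed as lower against R7-I and 18% against R7-III, so none among 6 is near these shares. As higher, 40.6% and 35.6% of all genes passed. *Golga4*, 20.1 kb from *Eomes*, rose in R7-II by 0.31 and 0.37 (against R7-I 0.13 after median-of-ratios scaling, which did not pass), *Azi2* by 0.41 and 0.41 and *Tgfbr2*, a TGF-β receptor gene 2303 kb away, by 0.54 and 0.62. *Cmc1*, *Acaa1b* and *Slc22a13b-ps* did not pass, although *Cmc1* did so in the R7-I comparison when R7-II replicate 2 was left out (0.43, adjusted p = 9.99e-04 from limma). *Azi2* and *Cmc1* overlap at their ends, where unstranded reads cannot be told apart.

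**Figure D4:**
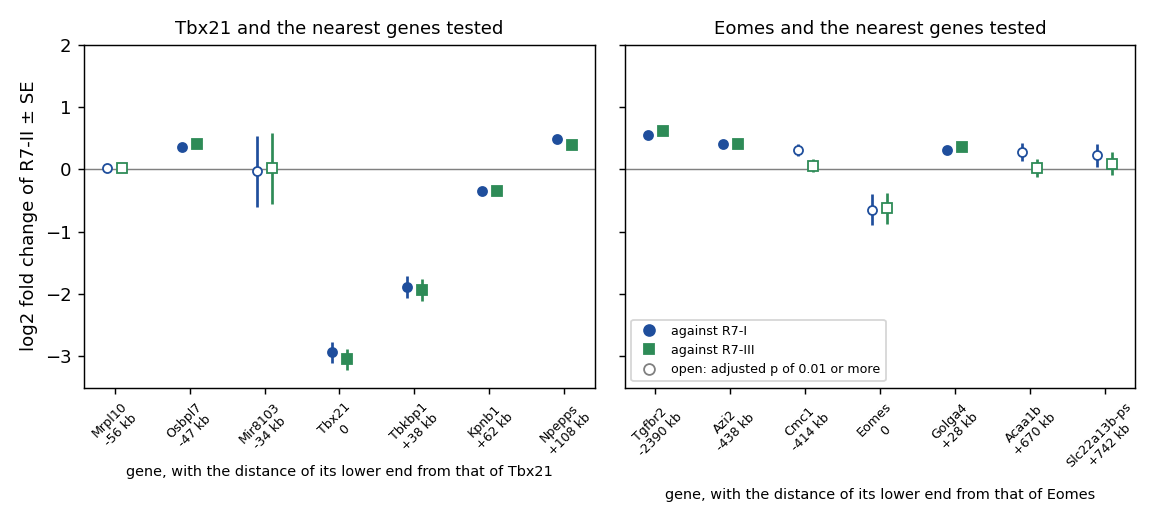
Log2 fold change ± SE of R7-II against R7-I (blue circles) and R7-III (green squares) for *Tbx21* (left), *Eomes* (right) and the 3 nearest genes tested on each side, in chromosome order, labelled with the distance in kb between the lower coordinates of gene and factor; open symbols did not pass the adjusted p of 0.01. *Tbkbp1* (-1.89 and -1.94) is the neighbour that lies closest to *Tbx21* (-2.94 and -3.05), and the neighbours of *Eomes* lie at or above 0.

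The genes whose levels were most like those of each factor over the 9 libraries were found by Pearson's r of log2(TPM + 1), which describes these libraries and rests largely on the gap between R7-II and the other clones. For *Tbx21* they were *Nek6* (r = 0.997), *Irf8* (0.997), *Wdr55* (0.996), *Stk39* (0.996) and *Icam1* (0.994). *Nek6*, a mitotic kinase gene, was at 3.85, 6.21 and 5.16 TPM in R7-II and at 18.5 to 21.4 TPM in the other libraries. *Irf8*, the gene of an interferon regulatory factor, was at 50.5, 72.4 and 73.1 TPM in R7-II and at 168 to 205 TPM elsewhere. Like *Tbx21*, both were lowest in replicate 1 of R7-II. Their choice by likeness to *Tbx21* favours this, so their levels are a description. *Eomes* ranked 2048 in likeness to *Tbx21* (r = 0.719).

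For *Eomes* the most alike were *Sept9* (r = 0.967), *Suclg2* (0.943), *Utf1* (0.936), *Ctsl* (0.936) and *Ctse* (0.926). They had in common that R7-II replicate 3 stood at the level of the other clones. *Ctse*, the cathepsin E gene, was at 4.91 and 4.47 TPM in R7-II replicates 1 and 2, at 38.4 TPM in replicate 3, and at 27.7 to 38.4 TPM in the other clones. *Ctsl*, the cathepsin L gene, was at 8.10, 6.83 and 11.5 TPM in R7-II and at 10.99 to 13.5 TPM elsewhere. They were chosen for this likeness, so their levels are a description. In the same library *Tbx21* (5.91 TPM) and *Tbkbp1* (1.90 TPM) stayed as low as in the other R7-II libraries.

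**Figure D5:**
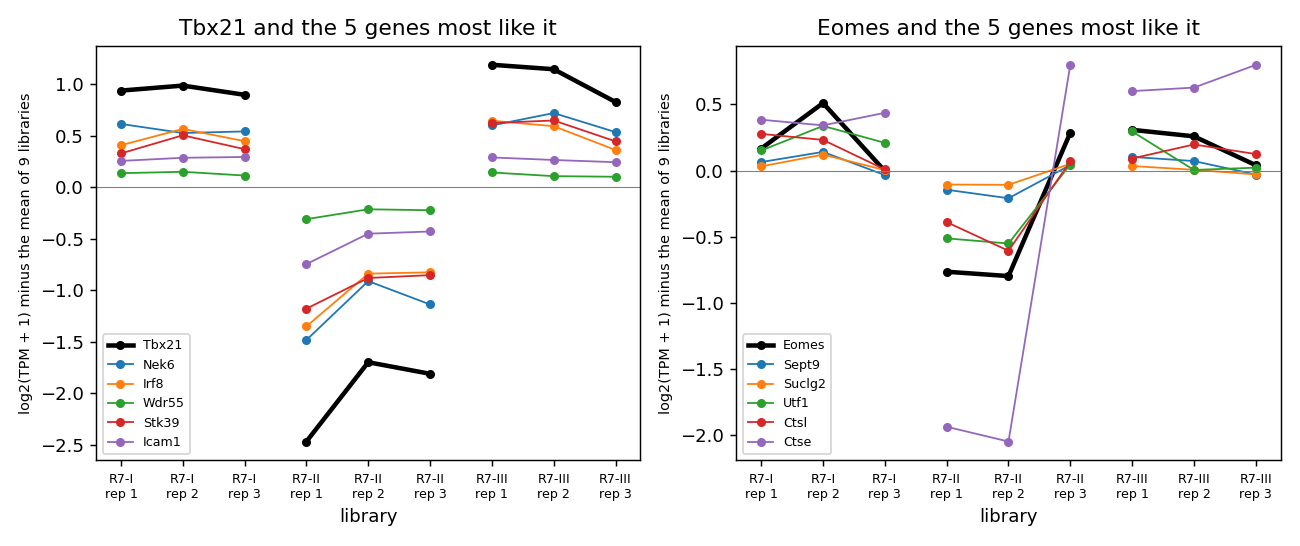
Deviation of log2(TPM + 1) from the mean of the 9 libraries for *Tbx21* (left, black), *Eomes* (right, black) and the 5 genes most like each; lines join the libraries of a clone and imply no order. At the left all R7-II libraries lie below 0, and at the right R7-II replicate 3 lies apart from replicates 1 and 2, with *Ctse* at 38.4 TPM against 4.91 and 4.47 TPM.

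The start-site windows of the genes known as activated by T-bet or Eomes were searched for GGTGTG on either strand. For 18 of the 23 genes 23 windows were found, of which 8 (34.8%) held it, against 19.0% of all windows. In the same 23 windows TATAA was found in 43.5%, against 24.9% of all windows, and the GC box in 26.1%, against 35.7%. This describes letters in a short window and does not show binding.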

How the data were processed

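Activated CD8 T cells of 3 transnuclear lines (3 libraries per clone) were sequenced as poly(A) RNA in unstranded single-end reads. The authors aligned and counted the reads with RSEM 1.2.11 against mm10 RefSeq genes and deposited a table of TPM values per gene and library. Per the labels DESeq2 1.8.1 was also used by the submitters. TPM keeps no counts, so the depth of each library in this table is unknown and no count test was applied. Between 13738 and 14434 genes were above 0 per library. All 9 columns matched a library, no 2 libraries were identical, and within a clone r was 0.992 to 0.997 on log2(TPM + 1). The labels call the libraries biological replicates and do not say how many mice they came from.

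Genes with a maximum TPM of 1 or less were left out (11330 of 24060 remained). Values were analysed as log2(TPM + 1), which understates changes of low genes, with limma 3.58.1 in R 4.3.3 (mean-variance trend, all 9 libraries in one fit) at a Benjamini-Hochberg adjusted p of 0.01, the threshold of the study. Single values were compared with exact permutation tests (scipy 1.17.1). The fit was tested on simulated data. Confidence intervals are 95% and cover single genes without adjustment. Other pseudocounts, filters, scalings, thresholds and fits without 1 library were tried.

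The 2 genes and the gene lists were chosen with earlier results of these data known. Named from each list were the 3 most abundant genes and up to 3 genes passing in each direction with the largest change against R7-I. Textbook targets (*Ifng*, *Cxcr3*, *Il2rb*, *Il12rb2*, *Hlx*, *Prf1*, *Gzmb*), *Mga*, the 3 nearest genes on each side and the 5 genes most alike were always named. Of the genes tested 99.6% had a RefSeq position (GRCm38.p6). Protein sequences were not used here. One gene that this rule names is not reported here.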

Additional observations from a re-analysis of the deposited data

How the results depend on the processing

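*Tbx21* stayed lower in R7-II and past the threshold in every alternative run (log2 fold change -3.19 to -2.32 against R7-I and -3.26 to -2.42 against R7-III, and -3.08 to -2.70 and -3.20 to -2.81 without 1 library). *Eomes* passed against R7-I after quantile normalization (-0.94, adjusted p = 0.00903 from limma) and in both comparisons at a threshold of 0.05 (-0.65 and -0.63). Without 1 library it ranged from -1.01 to -0.46 and from -0.98 to -0.44, and only the fits without R7-II replicate 3 passed. In R7-III relative to R7-I *Eomes* ranged from -0.14 to 0.12 without 1 library and was above 0 without R7-I replicate 2 (0.12) or R7-III replicate 3 (0.06). The difference of *Tbx21* and *Eomes* was -2.49 and -1.92 with pseudocounts of 0.1 and 5, and -2.69 to -2.09 without 1 library. Without R7-II replicate 1, 2 or 3 (-2.28, -2.69 and -2.09) the exact p was 0.0714, the smallest that 2 against 6 allow.

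Replicate numbers are shared between clones, but libraries of the same number did not deviate together (r -0.0449 to 0.0888, and 1 of 9 libraries was closest to its own number), so the numbers were not taken to pair samples. With the replicate number as a block *Tbx21* was at -2.94 and -3.05 (adjusted p = 2.03e-06 and 1.76e-06 from limma) and *Eomes* at -0.65 and -0.63 (adjusted p = 0.0572 and 0.0652), and 0 targets passed as higher between R7-III and R7-I.

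Counts over all genes depended on the scaling. Against R7-I 4604 genes passed as higher in R7-II, but 2860 after median-of-ratios scaling and 2558 after quantile normalization, and 1754 as lower, but 3334 and 3018. Against R7-III 2039 passed as lower, but 3199 after median-of-ratios scaling. In R7-III relative to R7-I 789 passed as higher (427 after quantile normalization, 1673 at 0.05, 363 to 921 without 1 library) and 164 as lower (422 after median-of-ratios scaling, 255 after quantile normalization, 102 without a trend, 469 at 0.05, 73 to 199 without 1 library). Of the genes passing there 82.8% were higher, and 56.6% and 62.6% under these 2 scalings. Activated targets higher in R7-II were 1 and 2 against R7-I and R7-III, 0 in both with at least 1 TPM in every library, 1 against R7-III after quantile normalization, and 1 to 2 in both without 1 library. In R7-III relative to R7-I 1 was higher (0 with median-of-ratios, quantile or robust fits, 3 at 0.05, 0 to 1 without 1 library) and 2 were lower (1 after quantile normalization, 4 at 0.05). The cause of these shifts was not tested. Depth is unknown for TPM, so the precision of low genes such as *Tbx6* and *Il18r1* cannot be stated.

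Genes that had not passed and changed sign after median-of-ratios scaling were *Smarca4* (-0.082 and -0.041), *Mga* (-0.067), *Il2rb* (-0.12), *Mrpl10* (-0.16 and -0.11), *Cmc1* (-0.064) and *Acaa1b* (-0.044). After quantile normalization they were *Mga* (-0.13), *Mrpl10* (-0.059 and -0.025), *Mir8103* (-0.017), *Cmc1* (-0.12), *Acaa1b* (-0.059 and -0.22) and *Slc22a13b-ps* (-0.092 and -0.14). Without 1 library, values of both signs were found for *Mrpl10* (-0.0085 to 0.054) and *Mir8103* (-0.55 to 0.52) against R7-I, and for *Mir8103* (-0.50 to 0.52), *Cmc1* (-0.015 to 0.18) and *Acaa1b* (-0.061 to 0.087) against R7-III.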
